A study of Mus musculus with 4 samples.

Results

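Nos2, Arg1, Arg2, Ass1, Slc7a2 and Acod1 govern how tumor-infiltrating myeloid cells use arginine and make itaconate, and they were followed in single cells from MC38 tumors. These 6 genes were chosen by name as the core of both pathways, with earlier results of these data known. All 6 were among the 19059 genes of the count matrices. In macrophages the level of each of the 6 genes was higher under combined antibody treatment than in any of the other 3 libraries, from 2.00-fold for Arg2 to 8.42-fold for Nos2 against isotype control. Most macrophages with Nos2 also had Arg1, and Acod1 and Arg2 stood highest in neutrophils.

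Arginine enters macrophages through cationic amino acid transporters, of which Slc7a2 encodes the inducible one of myeloid cells. Inside the cell, Nos2 (inducible nitric oxide synthase) turns arginine into nitric oxide and citrulline, and Ass1 (argininosuccinate synthase) takes part in rebuilding arginine from citrulline. Arg1, the cytosolic arginase, and Arg2, the mitochondrial one, instead split arginine into ornithine and urea, and ornithine feeds polyamine and proline synthesis. Acod1 encodes the enzyme that makes itaconate from the citric acid cycle intermediate cis-aconitate, and itaconate in turn inhibits succinate dehydrogenase. Nos2 is a textbook gene of macrophages activated by interferon-gamma and bacterial products, Arg1 of macrophages activated by interleukin-4 and of tumor macrophages, and both enzymes draw on the same arginine.

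MC38 is a mouse colon adenocarcinoma line, here grown under the skin of C57BL/6 mice humanized for CTLA-4 (B-hCTLA-4). CD45+ cells sorted from tumors, 4 pools and 1 library per treatment, were profiled with a probe-based assay on fixed cells (Chromium Flex). Mice were injected intraperitoneally 3 times with a human IgG1 isotype control at 10 mg/kg, ipilimumab (anti-human CTLA-4), the anti-mouse FcgRII antibody AT130-2 as mIgG1-N297A, or both antibodies at 10 and 20 mg/kg. Per the labels each library pooled 11 mice with tumors of about 100 mm3 on day 8. The article gives other mouse numbers and doses, and also another tumor size and day of harvest. The title and the treatment field of the 2 single-antibody libraries name opposite antibodies, so they are called single antibody A and single antibody B, where A carries anti-human CTLA-4 in its title and anti-mouse FcgRII in its treatment field, and B the reverse. With 1 library per treatment no test between treatments is possible. Intervals in brackets are 95% intervals of counting error alone, and differences between mice, sorts or libraries cannot be told apart from those between treatments.

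The libraries held 8173 (isotype control), 6390 (A), 6097 (B) and 7630 (combination) cell barcodes, with medians of 14836 to 19115 unique molecular identifiers (UMIs, counted transcripts) per cell, and 26785 cells were kept. No full barcode occurred in 2 libraries, while 4461 of the 23366 droplet parts of the barcodes did. Clustering without the 6 genes gave 27 clusters, named from marker lists as macrophage-like (10 clusters, 13710 cells), monocyte-like (2617 cells), neutrophil-like (735) and dendritic-like (627), hereafter by the plain names. The names were rebuilt here and may differ from those of the study. A cluster of 2663 cells led by Ly6i and Pdcd1lg2 was led by genes that include a marker of monocytes and none of macrophages, and Nos2 and Slc7a2 were themselves among them. Its nearest marker list was still that of macrophages (score -0.433, against -0.495 for monocytes), with 23 macrophage markers detected. The macrophage gene C1qa was at 3513 UMIs per 1000000 in this cluster, 6921 in macrophages and 857 in monocytes. It was kept apart as the Ly6i and Pdcd1lg2 cluster and made up 9.43%, 9.11%, 10.1% and 11.1% of cells in isotype control, A, B and the combination. A cluster of 148 cells led by Retnla and Lyve1 was also left unnamed, at 0.415% to 0.959% of cells. Levels are UMIs per 1000000 UMIs of the class (CPM), summed over its cells in 1 library.

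The genes lie on different chromosomes of the mouse genome (GRCm38). Slc7a2 (ENSMUSG00000031596) is on chromosome 8 from 40862396 to 40922308, Nos2 (ENSMUSG00000020826) on chromosome 11 from 78920787 to 78960254, and Ass1 (ENSMUSG00000076441) on chromosome 2 from 31470207 to 31520672. Arg1 (ENSMUSG00000019987) is on the minus strand of chromosome 10 from 24915221 to 24927484, Arg2 (ENSMUSG00000021125) on chromosome 12 from 79130777 to 79156301, and Acod1 (ENSMUSG00000022126) on chromosome 14 from 103046977 to 103056573. RefSeq promoter windows (GRCm38.p6) were at hand for 2 of the 6, Ass1 and Acod1. They are shown because both genes were higher in the combination while the letters before their starts differ. The stretches end at the base before the annotated gene, run 5′ to 3′ on the plus strand, and have CG pairs in capitals.
Ass1, chr2:31470020-31470206: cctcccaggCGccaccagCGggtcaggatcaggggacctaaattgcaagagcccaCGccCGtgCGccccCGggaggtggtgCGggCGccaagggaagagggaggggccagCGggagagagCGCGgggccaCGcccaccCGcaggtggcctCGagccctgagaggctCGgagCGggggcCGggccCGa
Acod1, chr14:103046762-103046976: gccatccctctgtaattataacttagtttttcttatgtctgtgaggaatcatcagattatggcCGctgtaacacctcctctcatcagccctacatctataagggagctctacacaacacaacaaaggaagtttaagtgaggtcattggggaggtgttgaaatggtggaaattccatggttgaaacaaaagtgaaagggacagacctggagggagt

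In the 250 bases before the RefSeq start, Ass1 held 23 CG pairs and 75.6% G or C, and Acod1 held 2 CG pairs and 44.4%, against medians of 6 pairs and 52.4% over 32851 mouse windows. At least as many CG pairs as in Ass1 occurred in 13.3% of windows, and as few as in Acod1 in 29.0%. Acod1 held a TATA box (TATAAA) that begins 28 bases before the RefSeq start, a motif found in 12.4% of windows on either strand. It also held the core motif of interferon regulatory factors (AANNGAAA), beginning 63 bases before the start, which occurred in 21.3% of windows and not in that of Ass1. The 30 bases around each match follow, with the motif in capitals.
Acod1, TATA box, chr14:103046972-103047001: ggagtgactgtgTATAAAggcacacgtcca
Acod1, interferon regulatory factor core motif, chr14:103046938-103046967: ggttgaaacaaAAGTGAAAgggacagacct
Ass1, GC box, chr2:31470195-31470224: ggccgggcccgaGGGCGGggcctttctcgc
Ass1, E-box, chr2:31470222-31470251: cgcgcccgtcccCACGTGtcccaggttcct

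The GC box (GGGCGG) was found in 32.7% of windows and the E-box (CACGTG) in 6.02%. Neither window held the interferon-gamma activated site TTCNNNGAA (7.02% of windows), or the NF-kB consensus (3.90%). The RefSeq starts, 31470270 for Ass1 and 103047012 for Acod1, lie downstream of the annotated starts given above. The TATA box of Acod1 and the GC box and E-box of Ass1 thus lie within the annotated genes. All of these are letter matches within 250 bases and say nothing of binding.

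Slc7a2, the transporter, was at 144 CPM in macrophages of isotype control, 152 with A, 112 with B and 293 in the combination. Against isotype control the combination was at 2.04-fold (1.99 to 2.08), against A at 1.93-fold and against B at 2.61-fold. Its level was higher in the Ly6i and Pdcd1lg2 cluster, at 293, 371, 349 and 775 CPM in the same order. In monocytes it was 57.9, 88.8, 103 and 283 CPM. Neutrophils and dendritic cells of the first 3 libraries held 4.98 to 56.1 CPM, a range that overlaps the 8.15 to 50.6 CPM of natural killer (NK) cells and ILC1, lymphocytes that served as a measure of free or foreign RNA.

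Nos2 was at 91.9, 202, 59.0 and 774 CPM in macrophages of isotype control, A, B and the combination. Relative to isotype control the combination was 8.42-fold higher (8.22 to 8.63), relative to A 3.84-fold and relative to B 13.1-fold, and A and B lay on either side of isotype control, at 2.19-fold (2.13 to 2.26) and 0.642-fold (0.619 to 0.665). The Ly6i and Pdcd1lg2 cluster had 231, 690, 217 and 1883 CPM, and monocytes 81.6, 180, 204 and 928 CPM. Dendritic cells held 12.2, 5.83, 4.06 and 215 CPM and neutrophils 101, 159, 85.5 and 333 CPM. In NK cells and ILC1 the values were 12.3, 6.21, 113 and 161 CPM, so that dendritic cells of the first 3 libraries were at or below this background. In B the summed levels of macrophages (59.0 CPM) and neutrophils (85.5 CPM) were also below it, so the ratios of macrophages to B rest on such a level. That background of B, 248 UMIs, came from few cells, as Nos2 was detected in 3.36% of its 238 NK cells and ILC1. In macrophages of B it was detected in 16.9%. With cells drawn down to 1923 UMIs these shares were 1.33% and 5.95%. In dendritic cells of the first 3 libraries the ratio of Nos2 to C1qa, a macrophage complement gene, was 0.0036 to 0.011. It was 0.170 in the combination. In macrophages this ratio was 0.0135, 0.0270, 0.0082 and 0.121. T cells held 31.3, 43.0, 14.4 and 378 CPM of Nos2, above dendritic cells in each library. In the combination the T cell level was also above the 333 CPM of neutrophils. The T cell class also held C1qa, at 3520, 1522, 3596 and 3152 CPM. Its ratio of Nos2 to C1qa was 0.0089, 0.028, 0.0040 and 0.120. The part of macrophage RNA in the levels of the 6 genes in T cells was not tested.

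Ass1 was at 213, 290, 206 and 661 CPM in macrophages, 3.10-fold higher under the combination than under isotype control (3.05 to 3.16). Outside the clusters named macrophages its level was higher still, with 580 to 1536 CPM in the Ly6i and Pdcd1lg2 cluster, 436 to 1185 CPM in monocytes and 437 to 1217 CPM in dendritic cells. In each of these classes isotype control was lowest and the combination highest. Dendritic cells of isotype control, A and B thus held Ass1 where their Nos2 was at or below background. Neutrophils had 114 to 297 CPM, against 34.5 to 118 CPM in NK cells and ILC1 and 208 to 434 CPM in T cells.

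**Figure D1:**
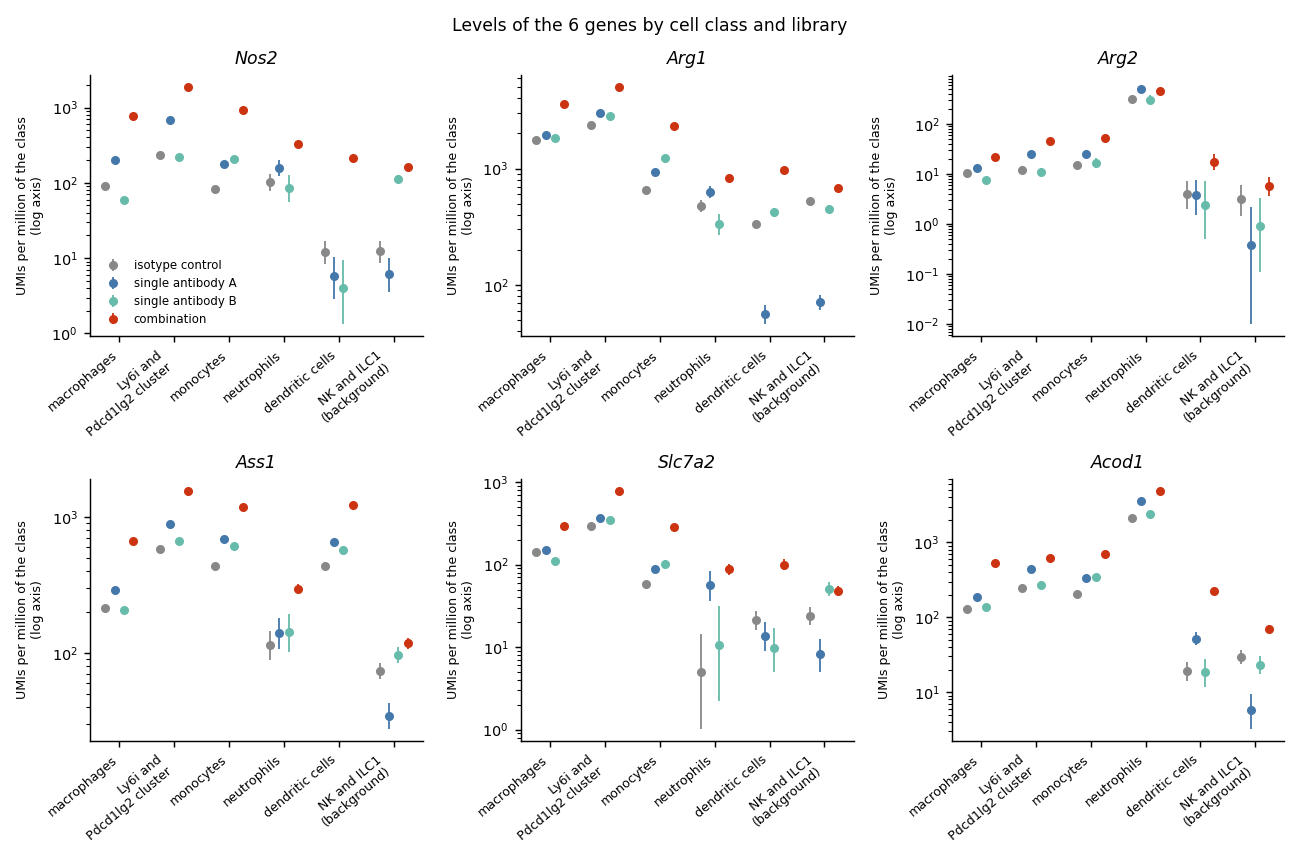
Levels of the 6 genes (CPM, log axis) in 6 cell classes, 1 point per library with its 95% Poisson counting interval. The combination is the highest point in macrophages, the Ly6i and Pdcd1lg2 cluster, monocytes and dendritic cells for each gene, and neutrophils stand above the other classes for Arg2 and Acod1.

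Arg1 was at 1766, 1942, 1842 and 3563 CPM in macrophages. It was 2.02-fold higher under the combination than under isotype control (2.00 to 2.03), with 1.83 and 1.93 against A and B, and A and B differed from isotype control by 1.10-fold and 1.04-fold. The Ly6i and Pdcd1lg2 cluster held 2382 to 5026 CPM and monocytes 654 to 2315 CPM. Neutrophils held 478, 628, 331 and 827 CPM and dendritic cells 336, 56.2, 422 and 980 CPM, and NK cells and ILC1 held 523, 71.4, 453 and 678 CPM. In isotype control and B this background was higher than both the neutrophil and the dendritic value, with A it was higher than the dendritic value, and in the combination it was the lowest of the 3. T cells held 680, 245, 618 and 1770 CPM. This was above the neutrophil and dendritic values in isotype control, B and the combination, and with A above the dendritic value only. The 27 macrophage markers summed to 13552, 10341, 19139 and 8973 CPM in neutrophils, 8056, 6083, 7544 and 7652 CPM in dendritic cells, and 8836, 2915, 10132 and 5569 CPM in NK cells and ILC1, and their part in these Arg1 values was not tested.

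Arg2, the mitochondrial arginase, was at 10.7, 13.3, 7.52 and 21.3 CPM in macrophages, at 14.9, 25.4, 16.7 and 52.9 CPM in monocytes and at 2.44 to 17.5 CPM in dendritic cells. Neutrophils held 317, 490, 306 and 456 CPM, above the other classes in every library, while NK cells and ILC1 held 0.388 to 5.73 CPM. In neutrophils the combination was 1.44-fold over isotype control (1.23 to 1.69) and within counting error of A, at 0.930-fold. In macrophages it was 2.00-fold over isotype control (1.84 to 2.17), just under the 2-fold ratio used for counts.

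Acod1 was at 127, 185, 136 and 538 CPM in macrophages, 4.22-fold higher under the combination than under isotype control (4.13 to 4.31), 2.90-fold over A and 3.95-fold over B. In the macrophage class 10 of 12 neutrophil markers were also higher under the combination than under isotype control, and their sum was 222, 241, 205 and 428 CPM. In B this sum was below isotype control, while Acod1 and the neutrophil gene S100a8 were both above it. Of monocyte markers 9 of 14 were higher under the combination, with sums of 1701 CPM in isotype control and 1613 in the combination. Of T cell markers 7 of 12 were higher, with sums of 202 and 208 CPM. S100a8, a defining gene of neutrophils, was at 8.36, 9.02, 13.6 and 63.3 CPM in macrophages, and the part of neutrophil RNA in the Acod1 and Arg2 levels of macrophages was not tested. The Ly6i and Pdcd1lg2 cluster held 249, 440, 266 and 610 CPM and monocytes 207, 339, 350 and 693 CPM. Neutrophils held 2094, 3545, 2387 and 4808 CPM, 2.30-fold higher under the combination than under isotype control (2.17 to 2.44) and 1.36-fold than with A (1.29 to 1.43). Dendritic cells held 19.1, 51.9, 18.7 and 228 CPM and NK cells and ILC1 29.6, 5.82, 23.2 and 70.5 CPM. T cells held 66.5, 51.8, 46.2 and 265 CPM. Neutrophils were 6.52% of cells in the combination and 0.831% to 1.60% in the other libraries, and they carried 11.1% of all Acod1 UMIs in the combination and 3.66% to 6.75% in the others.

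Within neutrophils a finer clustering separated a larger from a smaller cluster, and Acod1, which was not used for clustering, differed between them. In the larger cluster (77, 76, 32 and 428 cells), led by S100a9, S100a8, G0s2 and Il1f9, Acod1 was at 3321, 4412, 3453 and 5231 CPM. In the smaller (36, 17, 16 and 33 cells), led by S100a9, S100a8, Retnlg and Cxcr2, it was at 195, 179, 45.6 and 504 CPM, on 4 to 69 UMIs. Arg2 did not follow this split, with 321 to 528 CPM in the larger and 274 to 664 CPM in the smaller. Clusters cut from the same cells give no test of this difference, and most cells of the larger cluster came from the combination. The smaller cluster held 36 cells beside 77 in isotype control and 33 beside 428 in the combination. The Acod1 ratio of all neutrophils thus also includes a change in cluster shares.

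Counted over all genes with enough UMIs, 2.03% of 9612 genes in macrophages were at least 2-fold higher under the combination than under isotype control and 0.759% at least 2-fold lower. The 6 genes were chosen with earlier results of these data known, so their counts give no test. Of the 6 genes, 5 were at least 2-fold higher and Arg2 was not. Their median ratio was 2.57. The median of all tested genes, given on the log2 scale and not as a ratio, was -0.10, slightly below no difference. Against A, 3 of the 6 passed 2-fold, where 1.93% of genes did so upward and 0.397% downward, and against B 5 passed, where 3.4% did so upward and 0.917% downward. In the Ly6i and Pdcd1lg2 cluster 6 of 6 passed against isotype control (2.62% of genes higher, 2.34% lower), in monocytes 6 of 6 (3.32% and 0.904%), in dendritic cells 6 of 6 (3.46% and 4.56%) and in neutrophils 4 of 6 (3.68% and 14.8%). The neutrophil value for Slc7a2, 17.6-fold (5.92 to 85.9), rests on 3 UMIs in isotype control. Dendritic Arg2 rests on 11 UMIs there. Dendritic Nos2, Arg1, Slc7a2 and Acod1 of isotype control (12.2, 336, 21.2 and 19.1 CPM) were below NK cells and ILC1 (12.3, 523, 23.9 and 29.6 CPM). Dendritic Ass1 was above them, at 437 against 74.0 CPM.

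The ratios in macrophages could arise in a few clusters, so each of the 10 was read on its own. Nos2 was higher under the combination than under isotype control in 10 of 10, from 5.30-fold in the cluster led by the interferon-response genes Rsad2 and Ifit3 to 19.3-fold in a histone-rich cycling cluster, with a median of 11.8. Acod1 was higher in 10 of 10 (1.88 to 6.13), as were Ass1 (1.66 to 3.78), Arg1 (1.60 to 2.50) and Slc7a2 (1.16 to 2.70). Arg2 was higher in 9 of 10, and the exception was a cluster of 226 cells led by Hspa1a and Hspa1b, with 0.723. A ratio of at least 2 held in 10 clusters for Nos2, 9 for Acod1, 8 for Ass1, 6 for Arg1 and Arg2 and 3 for Slc7a2. For Nos2 the same ratio was 13.1-fold in NK cells and ILC1 (12.3 to 161 CPM) and 12.1-fold in T cells. The histone-rich cluster went from 12.2 to 235 CPM of Nos2, and clusters led by Uhrf1 and by Cdc20 from 15.0 to 215 and from 16.1 to 186. In isotype control these levels lay near that background, while the highest cluster began at 296 CPM. The part of free or foreign RNA in the cluster ratios was not tested.

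**Figure D2:**
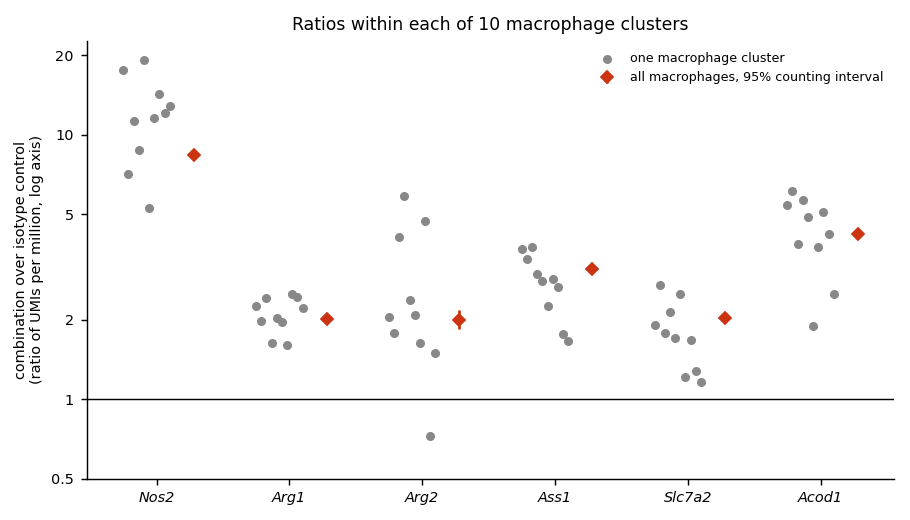
Ratio of the combination to isotype control (log axis) for each gene in each of 10 macrophage clusters (gray points, placed in cluster order) and over all macrophages (red diamonds with the 95% counting interval). Each of the 10 clusters lies above 1 for every gene but Arg2, where 1 cluster lies at 0.723.

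Levels differed more between clusters than the class values show. The macrophage cluster led by Thbs1 and Spp1 had the highest Arg1 level of the 10 in isotype control (4907 CPM), B (4380) and the combination (8020). With A the highest was the cluster of 194 cells led by Mmp12 and Cd36, at 5972 CPM against 5198. No single cluster led for Nos2. Its highest level was 296 CPM in isotype control, in a cluster of 2298 cells led by Hspa1a, Hspa1b and Gdf15, and 239 CPM with B, in the interferon-response cluster, while with A (701 CPM) and in the combination (2354 CPM) it was that of the Mmp12 and Cd36 cluster. The largest cluster, led by Cbr2 and Folr2, held 28.4, 74.2, 15.6 and 498 CPM of Nos2. Acod1 was highest in the interferon-response cluster, with 497, 738, 560 and 936 CPM, and lowest in the Hspa1a cluster of 226 cells, with 46.0, 75.3, 36.3 and 194 CPM, in each of the 4 libraries.

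Monocytes formed a classical cluster led by Plac8 and Chil3 and a nonclassical one led by Ace. In the classical cluster Nos2 was at 159.9 CPM in isotype control and 1293 in the combination, against 8.18 and 123 in the nonclassical one. Arg1 was at 1158 and 2981 CPM against 182 and 848, and Acod1 at 412 and 899 against 15.1 and 239. The classical cluster held the higher level of each of the 3 genes in all 4 libraries. The nonclassical Nos2 levels were below those of NK cells and ILC1, 12.3 CPM in isotype control and 161 in the combination. In isotype control nonclassical Arg1 and Acod1 were also below the NK and ILC1 levels (523 and 29.6 CPM). In the combination they were above the NK and ILC1 levels (678 and 70.5 CPM) but below those of T cells (1770 and 265 CPM). That T cell class also held C1qa at 3152 CPM.

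To ask whether Nos2 and Arg1 shared cells, each macrophage was drawn down to 7988 UMIs, and a gene counted as present at 3 or more UMIs. Arg1 was present in 67.9% (isotype control), 67.3% (A), 72.4% (B) and 85.8% (combination) of 3235, 2731, 3303 and 3072 macrophages. Nos2 was present in 6.98%, 11.9%, 4.68% and 36.1%. Both were present in 6.37% (5.55% to 7.26%), 10.7% (9.52% to 11.9%), 4.21% (3.55% to 4.95%) and 34.2% (32.5% to 35.9%), and Nos2 without Arg1 in 0.607%, 1.24%, 0.476% and 1.92%. The share with both was 5.36-fold higher under the combination than under isotype control (4.66 to 6.17), and 8.88-fold at a minimum of 10 UMIs. The other 3 libraries lay between 4.21% and 10.7%.

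Of the macrophages with Nos2, 91.3% had Arg1 in isotype control, 89.6% with A, 89.8% with B and 94.7% in the combination. Of those without Nos2, 66.1%, 64.3%, 71.6% and 80.8% had Arg1. If the genes were independent, the shares with both would be 4.74%, 8.01%, 3.39% and 31.0%, below the measured share in each of the 4 libraries. As a description, the odds of Arg1 were 5.38, 4.80, 3.51 and 4.22 times higher in cells with Nos2. Read the other way, 9.39%, 15.9%, 5.81% and 39.8% of macrophages with Arg1 had Nos2. Cells with Nos2 and no Arg1 were the rarest of the 4 kinds in each library.

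**Figure D3:**
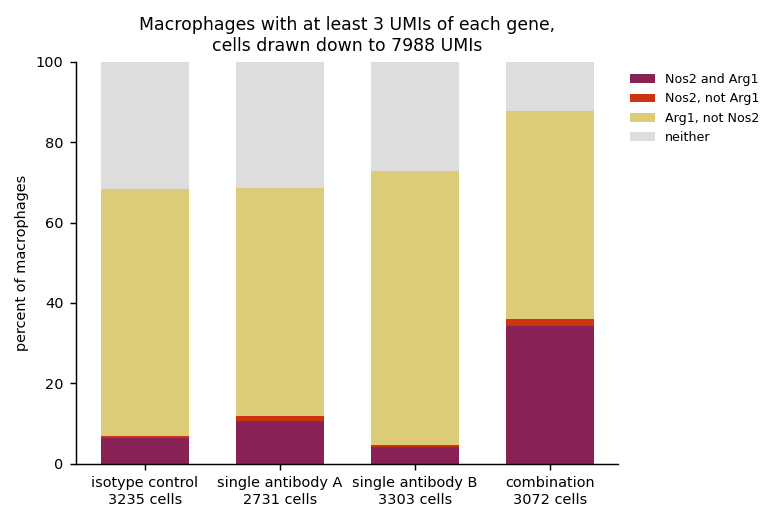
Share of macrophages with at least 3 UMIs of Nos2, Arg1, both or neither in each library, after cells were drawn down to 1 depth. The share with both is 4.21% to 10.7% in the first 3 libraries and 34.2% in the combination, and Nos2 without Arg1 is at most 1.92%.

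NK cells and ILC1 of the same depth give the background of such counts. Of 107, 79, 90 and 184 of them with at least 7988 UMIs, 2.47%, 0.063%, 3.00% and 8.36% passed the minimum for Nos2 and 26.9%, 2.71%, 29.2% and 23.6% for Arg1. Their median depths were 4315 to 6118 UMIs before the draw, against 17663 to 23894 in macrophages, so these are their deepest cells. Macrophage shares of Arg1 exceeded these in each of the 4 libraries. For Nos2 the counting intervals of the NK and ILC1 shares were 0.582% to 7.98% in isotype control and 0.693% to 9.43% in B, on 3 cells each, and these hold the macrophage shares of the same libraries. With A (0% to 4.56%) and in the combination (4.63% to 13.1%) they do not.

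The genes were also found together in this background. Both passed in 2.45%, 0.063%, 3.00% and 7.05% of NK cells and ILC1. In the combination 13 of 15 with Nos2 had Arg1, and the odds of Arg1 were 24.3 times higher in cells with Nos2 (5.83 to 101), against 4.22 times in macrophages (3.17 to 5.61). The part of free or foreign RNA in the shared presence of the genes was not tested.

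Without drawing down, Nos2 passed in 8.71% to 19.0% of macrophages of the first 3 libraries and in 48.6% in the combination, and both genes in 8.15% to 17.9% and 46.8%.

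Inside the 10 macrophage clusters, the share of Nos2-positive cells that had Arg1 spanned 56.8% to 98.4% for isotype control, 60.7% to 100% for A, 64.7% to 100% for B and 87.4% to 99.4% for the combination. In some clusters of the first 3 libraries under 1% of cells had Nos2, with the lowest shares at 0.828%, 0.240% and 0.457%. The Arg1 share of Nos2-positive cells was above that of all cells of the cluster in 9, 10, 9 and 9 of the 10. In the combination the exception was the Hspa1a cluster of 226 cells, with 24 cells at this depth, at 90.5% against 92.5%. In the Ly6i and Pdcd1lg2 cluster, drawn down to 6669 UMIs, both genes were present in 9.65%, 22.9%, 9.20% and 57.9% of cells. In monocytes, drawn down to 4878 UMIs, both were present in 1.33%, 3.39%, 2.95% and 19.1%, and 40.3%, 52.0%, 62.8% and 68.8% of the Nos2-positive monocytes had Arg1.

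The amount of Arg1 followed that of Nos2 from cell to cell. In isotype control, Arg1 was at 1504 CPM in macrophages with no Nos2 UMI, 2675 with 1 to 2, 3989 with 3 to 9 and 6496 with 10 or more. In the combination the same steps gave 2698, 3483, 4337 and 7109 CPM, and A and B went from 1566 to 5608 and from 1617 to 5851 CPM. Slc7a2 went from 104 to 627 CPM in isotype control and from 175 to 669 in the combination, and Acod1 from 102 to 535 and from 296 to 879. Ass1 went from 195.9 to 446 CPM in isotype control and from 491 to 1123 in the combination, and Arg2 from 8.50 to 63.9 and from 10.9 to 62.1.

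Marker genes of macrophages and of other cells also differed by Nos2 step. The macrophage markers C1qa and Adgre1 had the opposite order, and other macrophage markers were not read by Nos2 step. Among macrophage clusters, that led by the markers Mmp12 and Cd36 had the highest Nos2 level with the libraries pooled, at 1338 CPM. Of its 194 cells, 89 came from the combination. It was not the highest in isotype control (182 CPM, against 296 in another cluster) or in B (72.7 against 239). The cluster led by the markers Cbr2 and Folr2 held 166 CPM with the libraries pooled, and 826 of its 3533 cells came from the combination. C1qa was at 6950 CPM without Nos2 and 3786 at 10 or more Nos2 UMIs in isotype control, and at 6935 and 3691 in the combination. Adgre1, which encodes F4/80, went from 544 to 261 and from 484 to 287 CPM. Cd3e, a T cell gene that would mark droplets with a T cell, was at 2.77 to 26.1 CPM in every step and library. Plac8, a gene of classical monocytes, was higher at 10 or more Nos2 UMIs than at 0 in each library, at 416 against 192 CPM in isotype control, 695 against 193 with A, 518 against 86.5 with B and 446 against 265 in the combination. S100a8 went from 8.96 to 24.3, from 4.57 to 25.6, from 10.5 to 6.19 and from 39.2 to 112 CPM. The step of 10 or more Nos2 UMIs held on average 79.7, 145, 48.8 and 619 macrophages in isotype control, A, B and the combination. Its low S100a8 and Cd3e levels thus rest on few UMIs outside the combination. The part of monocytes or neutrophils in these steps was not tested.

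A difference between libraries remained among macrophages with no Nos2 UMI. In these cells Arg1 was at 1504 CPM in isotype control and 2698 in the combination, Ass1 at 195.9 and 491, Acod1 at 102 and 296, and Slc7a2 at 104 and 175. Values for A and B were 1566 and 1617 for Arg1, 250 and 195 for Ass1, 121 and 104 for Acod1, and 105 and 90.1 for Slc7a2. The combination was thus highest of the 4 for each of these genes also where Nos2 was not detected at this depth.

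**Figure D4:**
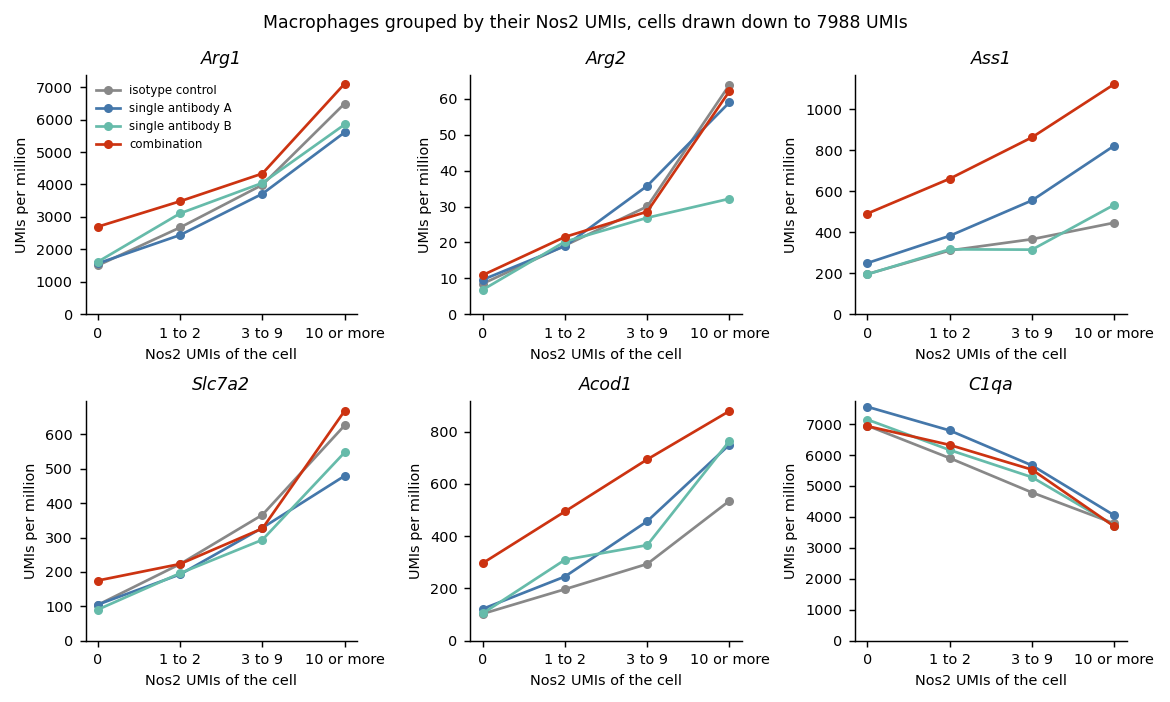
Level of 5 of the genes and of C1qa (CPM) in macrophages grouped by their Nos2 UMIs after cells were drawn down to 7988 UMIs, 1 line per library. Arg1, Arg2, Slc7a2 and Acod1 are higher and C1qa lower with each step in all 4 libraries, and so is Ass1 apart from 1 step in B, from 317 to 315.

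Across single macrophages the pairs differed in how closely they went together. The mean over libraries of Pearson's r of log2 levels was 0.43 for Arg1 and Slc7a2 (0.41 to 0.44), 0.33 for Nos2 and Slc7a2, 0.32 for Nos2 and Arg1 (0.25 to 0.40) and 0.30 for Ass1 and Acod1 (0.28 to 0.32). Arg1 and Acod1 had -0.02 (-0.05 to 0.01), the lowest of the 15 pairs. These values are over 3025 to 3747 cells of 1 library each, which share depth and free RNA, and describe the cells without a test.

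Genes were ranked by how like their pattern was to that of each of the 6. Over single macrophages, the 5 highest mean r for Nos2 were those of Cd274 (0.49), which encodes PD-L1, Vegfa, Ero1l, Hilpda and Ndrg1. For Arg1 they were those of Adam8 (0.56), Anxa2, Srgn, Clec4d and Lgals3, and for Arg2 those of Hilpda (0.36), Tnfrsf26, Vegfa, Plin2 and Fth1. Ass1 was most like AA467197 (0.44), Prdx5, S100a11, C3 and Sema4a, Slc7a2 most like Arg1 (0.43), Mmp12, F10, Egln3 and Fcrlb, and Acod1 most like Gbp5 (0.52), Cxcl10, Cd40, Gbp2 and Ifi47. Over the 16 sums of 4 classes and 4 libraries the order was another, led by Glrx (0.92) for Nos2, Pde8a (0.92) for Arg1, Slfn4 (0.99) for Arg2, Wars (0.94) for Ass1, Flrt2 (0.93) for Slc7a2 and Fpr2 (0.98) for Acod1. The 16 points share cells of 4 libraries and differ both by class and by library.

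The other genes of these pathways were also read in macrophages. Of 84 listed genes of the same pathways and their regulators, 81 were in the matrices and 74 had enough UMIs, of which 2 were at least 2-fold higher under the combination than under isotype control and 0 at least 2-fold lower, with a median ratio of 0.965. These counts are near those of all genes, of which 2.03% were higher and 0.759% lower. Among them was Irf1, a transcription factor of interferon signaling that was named after its values were seen, from 305 to 619 CPM (2.03-fold, 2.00 to 2.06). Against A it stood at 1.60-fold and against B at 2.65-fold. The lowest regulator was Klf4, from 59.9 to 36.4 CPM (0.607).

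Of the 8 tested genes for nitric oxide and its cofactor tetrahydrobiopterin, 0 passed 2-fold. The largest ratio was that of Gch1, which encodes the first enzyme of tetrahydrobiopterin synthesis, from 74.7 to 80.0 CPM (1.07, 1.03 to 1.11), and the smallest that of Ddah2 (0.733). Of 9 genes for arginine transport and supply, Slc3a2, the heavy chain of several amino acid transporters, went from 415 to 534 CPM (1.29) and Slc7a5 from 38.5 to 27.7 CPM (0.719), and Slc7a1, which encodes another cationic transporter, from 21.1 to 15.8 CPM (0.749). Of 14 genes for ornithine, polyamines and proline, Odc1, which makes putrescine from ornithine, was at 206 and 223 CPM (1.08) and Prodh at 12.8 and 9.06 CPM (0.706). The 21 genes around itaconate and the citric acid cycle had a median ratio of 1.00, from Suclg2 (0.710), a succinyl-CoA ligase subunit, to Mcee (1.19).

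**Figure D5:**
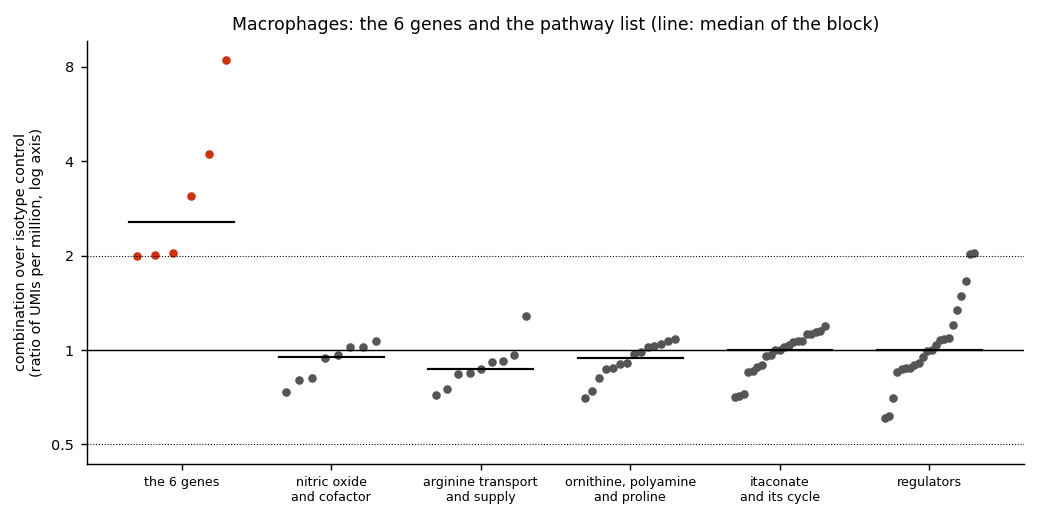
Ratio of the combination to isotype control in macrophages (log axis) for the 6 genes (red) and each tested gene of 5 blocks of the pathway list (gray), with block medians as lines and 2-fold ratios dotted. The 6 genes lie from 2.00 to 8.42, and 2 of the 74 listed genes lie past 2-fold.

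In the Ly6i and Pdcd1lg2 cluster 0 of 72 listed genes were at least 2-fold higher and 1 lower, where 2.62% and 2.34% of all genes were. In monocytes 0 of 72 were higher and 0 lower, beside 3.32% and 0.904% of all genes. In dendritic cells 2 of 72 were higher, Cebpb (2.46) and Smox (2.15), and 2 lower, Ddah2 and Klf4, beside 3.46% and 4.56% of all genes. In neutrophils, with few cells in isotype control, 5 of 71 were higher, among them Irf1 (3.12) and Pts (2.25), and 11 lower, beside 3.68% and 14.8% of all genes.

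Single cells differed widely within each library. In isotype control the 10% of macrophages with the most Nos2 held 90.8% of its UMIs, the same share for Acod1 was 79.6%, for Slc7a2 67.6%, for Arg1 47.1% and for Ass1 46.2%. Nos2 had no UMI in 78.9% of macrophages of isotype control, where the highest cell had 174, while the median cell had 15 Arg1 UMIs and the highest 738. By class, macrophages held 54.9% of all Nos2 UMIs in the series, the Ly6i and Pdcd1lg2 cluster 22.5%, and mixed clusters of lymphocytes and macrophages 12.6%. For Arg1 these shares were 66.2%, 13.9% and 13.2%, and for Arg2 neutrophils held 15.4% of the UMIs.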

How the data were processed

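CD45+ cells of 4 tumor pools were profiled with Chromium Flex. The authors deposited filtered matrices of raw UMI counts per gene and cell, made with Cell Ranger (7.2.0 in the matrix headers, 7.0.0 in the submitters' processing notes) on mm10. The 6 genes, the marker lists and the pathway list were chosen with earlier results of these data known.

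Cells with at least 500 genes and at most 10% mitochondrial UMIs were kept, and the 5% with the highest Scrublet score (scanpy 1.11.5) were left out as doublets in each library. Following the study's methods, counts were transformed with SCTransform (sctransform 0.4.2), integrated (Seurat 5.3.0, R 4.3.3) on 2994 features after the 6 genes were removed from 3000, and clustered on 30 principal components at resolution 0.8. Clusters were named by the marker list with the highest score, the mean log2 level relative to the mean over clusters. A cluster with more markers of another list among its 10 leading genes stayed unnamed. Clusters of T or NK cells with macrophage markers were set apart as mixed.

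UMIs were summed per class and library and divided by the class total. Ratios have exact conditional intervals and shares exact binomial intervals, which cover counting error only. Ratios across all genes used those with at least 5 CPM in 1 of the 2 libraries. For shares, cells were drawn down without replacement to the 10th percentile of the class (mean of 100 draws). Shallower cells, 512, 294, 280 and 283 macrophages, were left out. NK cells and ILC1 and single macrophage clusters were drawn to the macrophage depth of 7988 UMIs, with fewer draws for single clusters. The shares at 1923 UMIs used the 10th percentile of neutrophils. Levels by Nos2 UMIs used macrophages drawn to the same depth of 7988 UMIs. Likeness was Pearson's r of log2(CPM + 1) over 16 sums, among 8613 genes with at least 20 CPM in 1 of them, and of log2(UMIs per 10000 + 1) over single macrophages, among 9704 genes detected in at least 5% of macrophages of every library. The rule for named genes was the 6 genes, the highest and lowest ratio of each pathway block, and the 5 most alike genes. The alternatives were other clusterings, filters, minimums and scalings. Steps were tested on simulated data. Probe sequences were not used here. A result for 1 listed gene is not reported here.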

Additional observations from a re-analysis of the deposited data

How the results depend on the processing

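Under each alternative run, the 6 levels in macrophages were above those of isotype control under the combination, and no value reversed. Without integration the ratios were 9.06 for Nos2, 2.28 for Arg1, 2.26 for Arg2, 3.31 for Ass1 and 2.46 for Slc7a2. At resolution 0.4 they were 2.11 for Arg1, 1.78 for Arg2, 3.00 for Ass1 and 4.37 for Acod1, and at 1.2 they were 2.10 for Arg1 and 3.90 for Acod1. With doublets kept, Nos2 stood at 8.80, Arg1 at 2.17 and Acod1 at 4.33. Size factors by the median of ratios, which moved the median log2 ratio of tested genes by 0.10, gave 9.03 for Nos2, 2.16 for Arg1, 3.33 for Ass1, 2.19 for Slc7a2 and 4.53 for Acod1. The mean over cells of UMIs per 10000 gave 8.01 for Nos2, 2.06 for Arg1, 2.29 for Slc7a2 and 3.81 for Acod1. With monocytes counted as macrophages the ratios were 8.72, 2.12, 2.36, 2.95, 2.33 and 3.75 for Nos2, Arg1, Arg2, Ass1, Slc7a2 and Acod1. With the unnamed clusters counted as macrophages, an alternative chosen after seeing the data, they were 2.05 for Arg1, 2.27 for Arg2, 3.04 for Ass1, 2.24 for Slc7a2 and 3.85 for Acod1. Arg2 thus lay on either side of 2-fold. The share of macrophages with both Nos2 and Arg1 was 3.62-fold higher at a minimum of 1 UMI, 8.88-fold at 10, 4.12-fold without drawing down and 6.23-fold with monocytes, and the share of Nos2-positive cells with Arg1 was 96.9%, 89.5%, 96.2% and 91.8% in the same order. At a 1.5-fold ratio, 3 pathway genes were higher instead of 2, and 2 were lower instead of 0. The share of all genes past 1.5-fold is not given here, so these counts are not read against it. The causes of these shifts were not tested. No paired analysis was possible because each group is 1 library, and no replicate could be left out.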

Other observations

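The unnamed cluster led by Retnla and Lyve1, genes known from resident tissue macrophages, held 36, 58, 24 and 30 cells in isotype control, A, B and the combination. Slc7a2 was at 17.5, 58.9, 270 and 536 CPM in these cells, Arg1 at 535, 929, 1671 and 2441 CPM, and Ass1 at 55.3, 22.5, 70.5 and 426 CPM. Nos2 was at 1.46, 14.7, 1.57 and 235 CPM, on 1 UMI in isotype control. In this cluster B stood between isotype control and the combination for Slc7a2 and Arg1. The same held in the Ly6i and Pdcd1lg2 cluster and in monocytes. In macrophages it held for Arg1, while B had the lowest Slc7a2 level of the 4 libraries. With few cells per library these values carry no test.

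Among dendritic cells, the cluster led by Ccr7 and Ccl22 held Ass1 at 733, 965, 954 and 987 CPM on 38, 16, 12 and 35 cells, while that led by Cd209a went from 390 CPM in isotype control to 1286 CPM in the combination. Nos2 was at 0 UMIs in the Ccr7 cluster of isotype control, A and B and at 39.9 CPM in the combination. That value is from 35 cells and lies below the 161 CPM of NK cells and ILC1 in the combination.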
